A study of Homo sapiens with 10 samples.

Results

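Interferon-stimulated genes are the genes that cells switch on when they sense interferon, and 43 of them were followed here in cells treated with siRNA against NEMP1, a protein of the inner nuclear membrane, on a stiff and on a soft growth surface. They were taken by name from the deposited table of gene counts, where all 43 were found among 40664 gene rows, and 39 of them passed the filter on low counts that left 13990 genes for testing. The cells were hTERT RPE-1, a human retinal pigment epithelial line (CRL-4000) kept dividing by telomerase. The 4 groups were siNemp1 cells on a 120 kPa substrate (3 libraries), control cells on 120 kPa (3 libraries), siNemp1 cells on a 10 kPa substrate (2 libraries) and control cells on 10 kPa (2 libraries), where siNemp1 is a small interfering RNA against NEMP1 and kPa is the unit of stiffness. The labels do not say whether control cells received a non-targeting siRNA, nor whether replicates came from separate cultures, so the p-values below rest on differences among libraries that may be technical repeats. No interferon was added in any group as far as the labels say.

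Type I interferons bind the receptor IFNAR1/IFNAR2, whose kinases JAK1 and TYK2 phosphorylate STAT2. STAT2 and IRF9 are subunits of a complex called ISGF3, which binds a DNA element, the interferon-stimulated response element, in front of its target genes. Type II interferon acts through IFNGR1 and IFNGR2 and another element, GAS. The products of the target genes sense foreign RNA, degrade it, block translation or trap viruses at membranes, and in cells without interferon a basal level of many of them is kept up by factors that include IRF9.

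The response element is shown here for members on which the results below turn. Of the 43 genes, 34 had a RefSeq promoter window (GRCh38.p14), of which the 250 bases before the start were searched on both strands. The core, GAAA followed by NN (any pair of bases) and GAAA, was found in 20 of the 34 members with a window (58.8%), against 1014 of 27305 genes (3.71%). The longer form, which is the core with CT after it, was found in 12 members (35.3%), against 74 genes (0.271%). The GAS letters TTCNNNGAA were found in 9 members (26.5%), against 2208 genes (8.09%). In the sequences below, read 5′ to 3′ on the strand of the gene, the capitals mark the core or its reverse complement, TTTC followed by NN and TTTC. OAS3 (chr12:112938311-112938360, plus strand) and PARP14 (chr3:122680790-122680838, plus strand) had lower levels in siNemp1 cells at both stiffnesses, and PARP9 (chr3:122564312-122564361, minus strand) starts beside DTX3L, another such gene. IFIT3 (chr10:89327855-89327904, plus strand) is a gene whose siNemp1 difference had opposite signs at the 2 stiffnesses. ISG15 (chr1:1013370-1013419, plus strand) and IFI6 (chr1:27672278-27672327, minus strand) varied most among control libraries on 120 kPa.
OAS3: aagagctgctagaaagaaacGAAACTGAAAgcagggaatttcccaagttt
PARP14: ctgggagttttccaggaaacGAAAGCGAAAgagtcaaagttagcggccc
PARP9: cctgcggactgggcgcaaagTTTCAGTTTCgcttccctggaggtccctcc
IFIT3: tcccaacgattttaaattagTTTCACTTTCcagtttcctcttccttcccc
ISG15: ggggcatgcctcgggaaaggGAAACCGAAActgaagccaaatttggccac
IFI6: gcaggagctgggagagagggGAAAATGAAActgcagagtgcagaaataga
In the OAS3 window the sequence shown lay 134 bases before the start and a second core match 3 bases before it, and in the PARP14 window the match lay 20 bases before the start. The windows of IFIT3, ISG15 and IFI6 also held core matches besides those shown. The windows of EIF2AK2, DTX3L, OAS1 and STAT2 held no match to the core, and no window was found for IFIT2. DTX3L and PARP9 lie head to head on opposite strands of chromosome 3, with annotated starts as close as 38 bases, and their exons overlap.

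Most members were expressed without added interferon. Mean levels, in CPM, which are counts scaled to a common library size of 1000000 with TMM factors, were at least 100 for 5 members, from 10 to 100 for 20, from 1 to 10 for 12, and under 1 for 6. Per kilobase of the principal transcript, IFITM3 was highest (1258 CPM per kilobase), followed by IFITM2 (602) and by UBE2L6 (157), the enzyme that carries ISG15 to its targets. IFITM2 and IFITM3 are membrane proteins that block virus entry, and they share 45.2% and 36.4% of their 31-base words with other genes. IFITM1 shares 35.3%, and its exons overlap those of IFITM2 on the same strand. The division of counts among the IFITM genes is therefore uncertain. Some of the genes known for the steepest rise under interferon were near 0. RSAD2 (viperin), IFI27, CMPK2 and XAF1 did not pass the filter, and RSAD2 had 0, 0 and 0.173 CPM in siNemp1 cells and 0.0453, 0.220 and 0.979 CPM in control cells on 120 kPa, and 0 in all 4 libraries on 10 kPa. Of 19 interferon genes found among the rows, 14 had no count in any library, IFNB1 among them. IFNA1, 1 of 2 that passed the filter, had 5.74, 4.71 and 2.32 CPM in siNemp1 cells and 7.48, 6.87 and 3.26 CPM in control cells on 120 kPa. It was not called there. It was called lower in edgeR's fit of the 10 kPa libraries alone (adjusted p = 0.0383, background 9.19% lower). Over both stiffnesses it was called lower with the replicate number as a block within 120 kPa (edgeR adjusted p = 0.0175, background 9.7% lower). IFNA1 has near-identical copies, so its counts are uncertain.

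The knockdown was visible in every library. NEMP1 had 7.52, 6.70 and 4.11 CPM in siNemp1 cells and 18.3, 14.0 and 14.1 CPM in control cells on 120 kPa, and 8.22 and 7.63 CPM in siNemp1 cells and 14.1 and 17.3 CPM in control cells on 10 kPa, with no overlap between treatments at either stiffness. Its log2 change was -1.34 ± 0.22 at 120 kPa (edgeR quasi-likelihood test, Benjamini-Hochberg adjusted p = 0.0569) and -0.98 ± 0.27 at 10 kPa (adjusted p = 0.803). With the numbered pairs as a block it fell on 120 kPa (-1.37 ± 0.18, adjusted p = 0.00567), and over both stiffnesses without the block it was -1.16 ± 0.18 (adjusted p = 0.0442). Library totals were 17949807 to 23797713 estimated counts. On 120 kPa the libraries with the same replicate number deviated together from their group means, with correlations of 0.554, 0.249 and 0.442 for numbers 1, 2 and 3 over all tested genes, against 0.0168 on 10 kPa. The library numbered 3 in siNemp1 cells on 120 kPa stood lowest for the members as a whole. In it 9 of 39 tested members were above their own mean over the 10 libraries. On 120 kPa this count was 26 and 17 in the siNemp1 libraries numbered 1 and 2 and 25 to 28 in the control libraries. On 10 kPa it was 17 and 23 in the siNemp1 libraries and 15 and 18 in the control libraries.

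**Figure D1:**
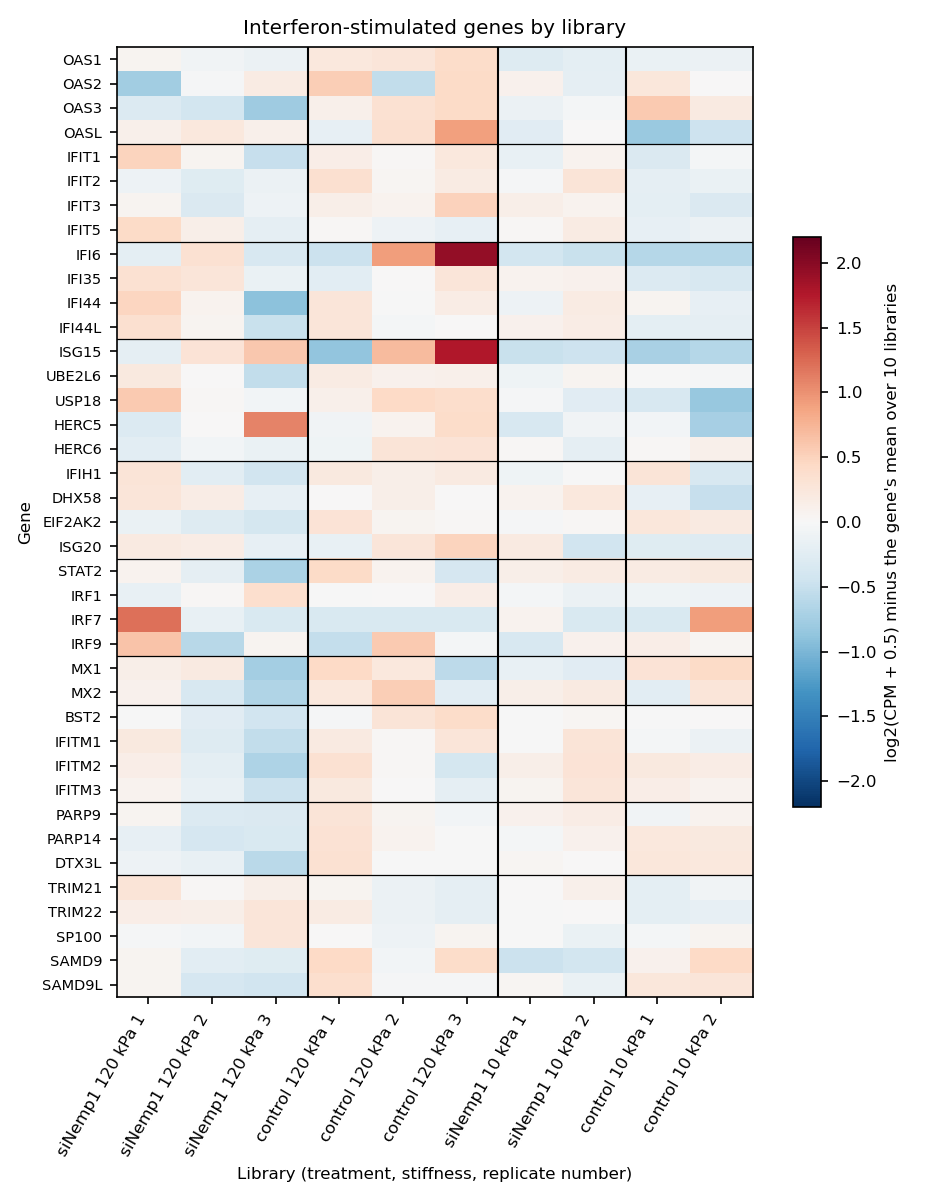
Each row is one of the 39 tested genes and each column a library; colour gives log2(CPM + 0.5) minus the gene's own mean over the 10 libraries, and lines separate the groups and the gene classes. The siNemp1 library numbered 3 on 120 kPa is blue for most genes, and ISG15 and IFI6 are reddest in the control library numbered 3 on 120 kPa.

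On 120 kPa the members were mostly lower in siNemp1 cells than in control cells, by small amounts. The fitted log2 change was negative for 29 of 39 members, with a median of -0.28. Over all 13990 genes the median was 0.01, and 49.2% were negative. OAS3, EIF2AK2, PARP14 and DTX3L fell when the numbered pairs entered the fit as a block, and OAS3 had the lowest level relative to control of the 4. In edgeR's quasi-likelihood test without that block no gene of the table was called (0%) and so no member, although 9 members, all lower, had an unadjusted p under 0.05, against 6.33% of all genes lower at that level. With the replicate number as a block over all libraries 4 members fell and 0 rose (background 2.51% of genes fell and 6.24% rose). With the block within 120 kPa only, 12 fell and 0 rose (background 7.68% fell and 12.7% rose): BST2, DTX3L, EIF2AK2, IFIT2, IFIT3, IFITM2, OAS1, OAS3, PARP14, PARP9, SAMD9L and STAT2. DESeq2 without a block called 3 members, all lower, EIF2AK2, OAS3 and PARP14, among 642 genes (2.73%, with 0.79% lower). The DESeq2 shares here and below are of 23537 genes. These include genes that DESeq2 left without an adjusted p and could not call, so the shares are low beside those of edgeR. Leaving out pair 1, 2 or 3 from the fit with the block over all libraries left 10 (9 lower, 1 higher), 0 and 1 members called, among 11.2%, 0.0144% and 5.49% of all genes called. Without the siNemp1 library numbered 3 the median change was -0.18, and without that numbered 1 it was -0.41. Without any model, 7 members did not overlap between the groups and were lower (background 6.95%), and 0 did not overlap and were higher (background 10.9%). Within all 3 numbered pairs 16 members were lower (background 21.8%) and 1, TRIM21, was higher (background 25.1%).

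**Figure D2:**
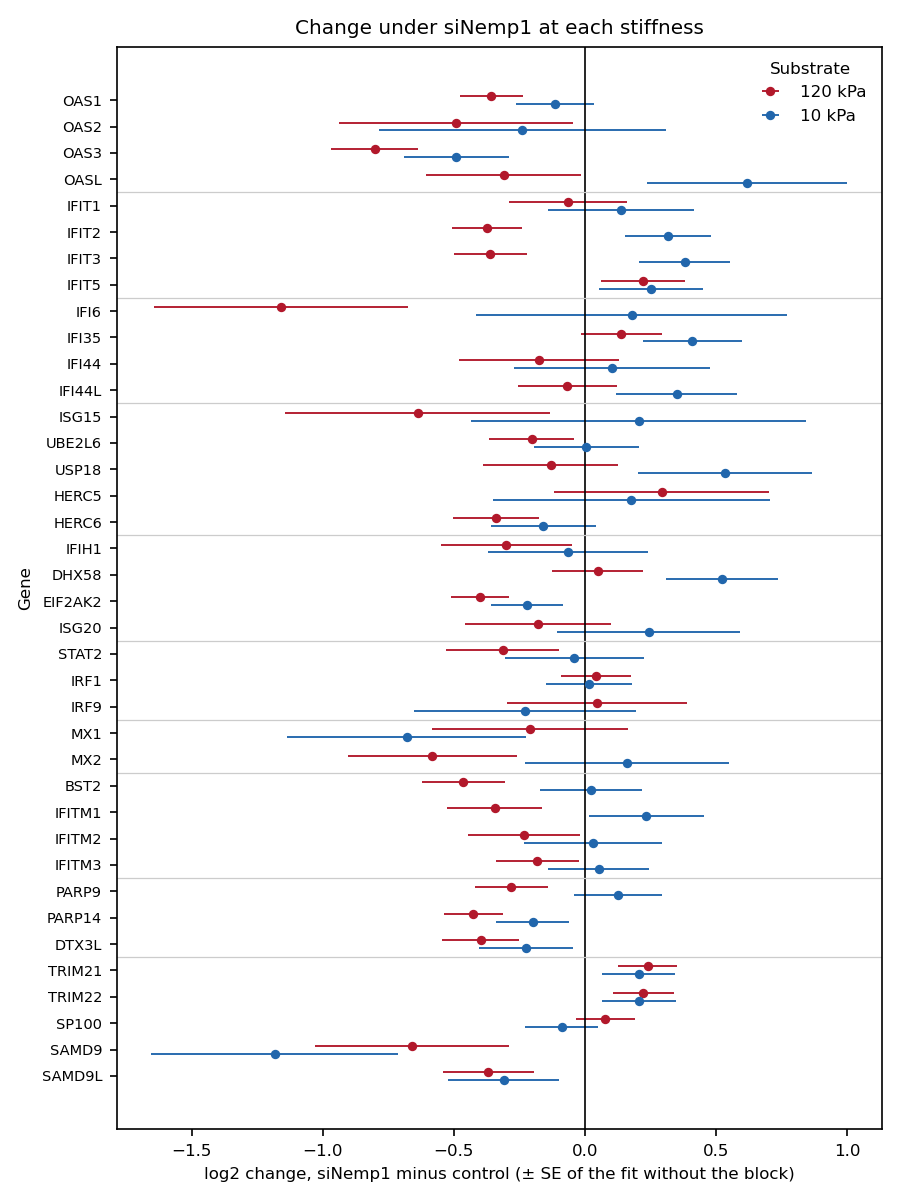
Points give the fitted log2 change, siNemp1 minus control, and bars the SE, in red for 120 kPa and blue for 10 kPa, for 38 tested genes ordered by class (IRF7, near 0 in most libraries, is left out). Most red points lie left of 0, the blue points lie on both sides, and OAS3, EIF2AK2, PARP14 and DTX3L lie left of 0 in both colours.

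The oligoadenylate synthetases make the messenger that activates RNase L against double-stranded RNA. All 4 had a negative change on 120 kPa. OAS3 had 16.8, 15.7 and 11.9 CPM in siNemp1 cells and 22.7, 26.6 and 28.2 CPM in control cells on 120 kPa, and 19.0 and 20.4 CPM in siNemp1 cells and 31.3 and 24.0 CPM in control cells on 10 kPa. Every siNemp1 library was below every control library on the same substrate, and the siNemp1 library numbered 3 was lowest of all 10. The log2 change on 120 kPa was -0.80 ± 0.17 without the block (adjusted p = 0.0626) and -0.81 ± 0.16 with it (edgeR, adjusted p = 0.0156). OAS1 had 17.9, 16.2 and 15.6 CPM in siNemp1 cells and 20.1, 20.8 and 22.7 CPM in control cells on 120 kPa, again without overlap (-0.36 ± 0.12, adjusted p = 0.167 without the block and 0.0321 with the block within 120 kPa). OAS2 was low, at 0.590 to 2.17 CPM over all libraries, and its groups overlapped.

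EIF2AK2 encodes PKR, the kinase that stops translation when it binds double-stranded RNA. It had 69.8, 63.4 and 59.2 CPM in siNemp1 cells and 95.1, 80.9 and 78.3 CPM in control cells on 120 kPa, and 75.7 and 78.8 CPM in siNemp1 cells and 91.6 and 88.5 CPM in control cells on 10 kPa. The groups did not overlap at either stiffness, and the pair differences on 120 kPa were alike, at -0.44, -0.35 and -0.40 on the log2 scale for pairs 1, 2 and 3. The fitted change on 120 kPa was -0.40 ± 0.09 with the block (edgeR, adjusted p = 0.0238) and -0.40 ± 0.11 without it (adjusted p = 0.111). For the other RNA sensors of the class the groups on 120 kPa overlapped. IFIH1 (MDA5) had 5.26, 3.57 and 3.07 CPM in siNemp1 cells and 5.02, 4.68 and 4.93 CPM in control cells on 120 kPa. DHX58 (LGP2), a regulator of MDA5 and RIG-I, had 10.5, 9.63 and 7.48 CPM in siNemp1 cells and 8.60, 9.42 and 8.63 CPM in control cells on 120 kPa.

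PARP14 and PARP9 are ADP-ribosyltransferases, and DTX3L is the ubiquitin ligase that works as a complex with PARP9. PARP14 had 54.1, 47.7 and 48.8 CPM in siNemp1 cells and 76.5, 64.7 and 61.1 CPM in control cells on 120 kPa, and 59.9 and 65.3 CPM in siNemp1 cells and 71.9 and 71.8 CPM in control cells on 10 kPa. Its groups did not overlap at either stiffness, and it fell by 0.42 on the log2 scale on 120 kPa with the block (-0.42 ± 0.10, edgeR adjusted p = 0.0287; without it adjusted p = 0.101). DTX3L had 34.1, 32.7 and 24.4 CPM in siNemp1 cells and 46.6, 36.7 and 36.6 CPM in control cells on 120 kPa, and 38.0 and 36.9 CPM in siNemp1 cells and 44.0 and 43.5 CPM in control cells on 10 kPa, without overlap at either stiffness. Its change on 120 kPa was -0.41 ± 0.11 with the block (edgeR adjusted p = 0.0430) and -0.40 ± 0.15 without it (adjusted p = 0.202). Its head-to-head neighbour PARP9 had 42.9, 33.3 and 33.1 CPM in siNemp1 cells and 50.4, 43.0 and 39.3 CPM in control cells on 120 kPa, and 44.0 and 46.1 CPM in siNemp1 cells and 39.2 and 43.4 CPM in control cells on 10 kPa. PARP9 was lower in all 3 pairs on 120 kPa and fell in the fit with the block within 120 kPa (-0.28 ± 0.08, adjusted p = 0.0257), while on 10 kPa both siNemp1 libraries were above both control libraries. DTX3L and PARP9 overlap on opposite strands and the strand setting of the libraries is not given, so reads in the overlap cannot be assigned to either with certainty; the same holds for EIF2AK2 and its antisense neighbours.

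**Figure D3:**
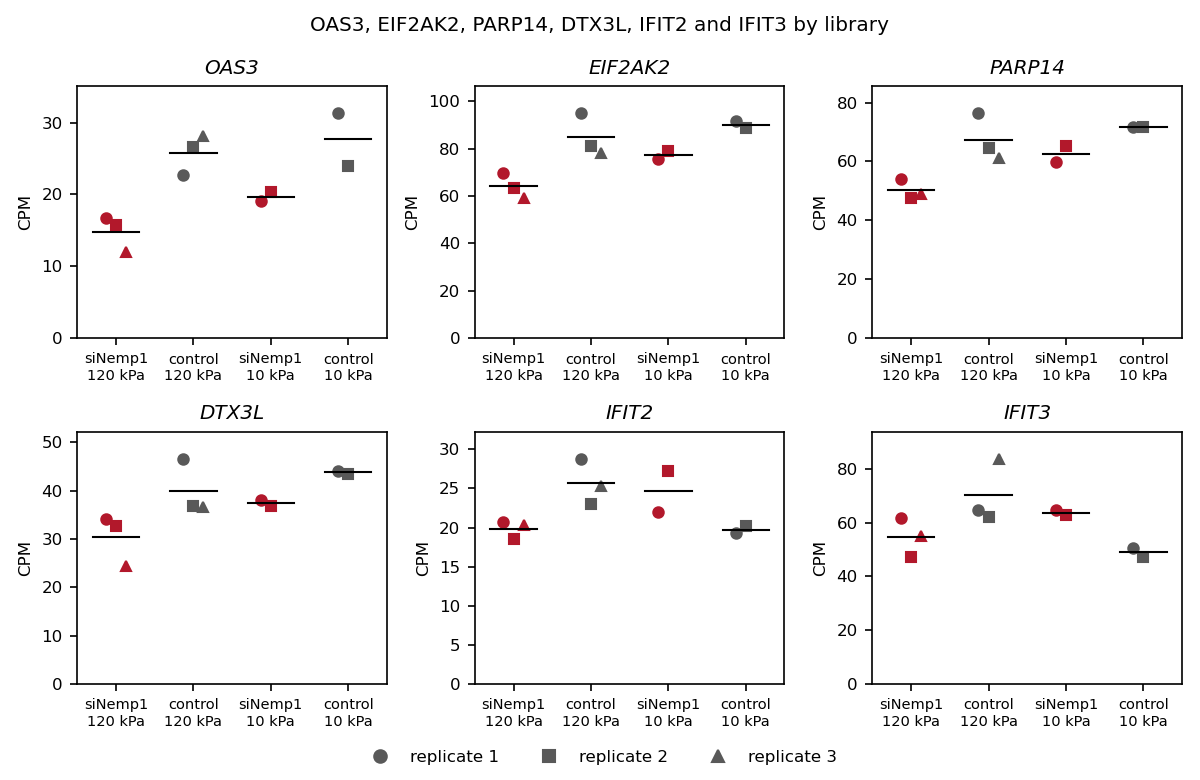
CPM in each library (points, shaped by replicate number; red siNemp1, grey control) with the group mean as a line, for OAS3, EIF2AK2, PARP14, DTX3L, IFIT2 and IFIT3. In the first 4 genes the red points lie below the grey ones at both stiffnesses; in IFIT2 and IFIT3 they lie below on 120 kPa and above on 10 kPa, where IFIT2 had 22.0 and 27.2 CPM in siNemp1 cells and 19.3 and 20.2 CPM in control cells.

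The IFIT proteins bind viral RNA ends and block translation. IFIT2 and IFIT3 were lower in siNemp1 cells on 120 kPa and higher on 10 kPa, with no overlap in either case, a pattern of 0.236% of all genes (the reverse pattern was found in 0.379%). IFIT3 had 61.8, 47.2 and 55.0 CPM in siNemp1 cells and 64.7, 62.1 and 83.8 CPM in control cells on 120 kPa, and 64.6 and 62.7 CPM in siNemp1 cells and 50.6 and 47.2 CPM in control cells on 10 kPa. IFIT2 had 20.7, 18.5 and 20.3 CPM in siNemp1 cells and 28.8, 23.0 and 25.3 CPM in control cells on 120 kPa, and 22.0 and 27.2 CPM in siNemp1 cells and 19.3 and 20.2 CPM in control cells on 10 kPa. With the block within 120 kPa both fell there, with a log2 change of -0.36 ± 0.10 for IFIT3 (edgeR adjusted p = 0.0234) and of -0.37 ± 0.10 for IFIT2 (adjusted p = 0.0286). With the block over all libraries neither passed, at adjusted p = 0.0762 for IFIT3 and 0.109 for IFIT2. IFIT1 had 21.9, 16.2 and 10.8 CPM in siNemp1 cells and 17.2, 15.6 and 18.2 CPM in control cells on 120 kPa, and IFIT5 had 27.4, 22.2 and 17.6 CPM in siNemp1 cells and 20.8, 18.8 and 17.9 CPM in control cells, both with overlap.

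ISG15, a ubiquitin-like modifier, and IFI6, a small membrane protein that protects the endoplasmic reticulum from flaviviruses, were set apart by the spread among control libraries on 120 kPa. ISG15 had 14.1, 19.9 and 24.6 CPM in siNemp1 cells and 8.55, 26.4 and 56.1 CPM in control cells on 120 kPa, and 11.3 and 11.6 CPM in siNemp1 cells and 9.62 and 10.2 CPM in control cells on 10 kPa. IFI6 had 42.1, 61.5 and 38.0 CPM in siNemp1 cells and 34.9, 92.6 and 189 CPM in control cells on 120 kPa, and 36.7 and 34.6 CPM in siNemp1 cells and 31.4 and 31.6 CPM in control cells on 10 kPa. In the control cells on 120 kPa the library numbered 3 was above the library numbered 1 by 2.64 for ISG15 and by 2.42 for IFI6 on the scale of log2(CPM + 0.5). OASL, an inactive synthetase that boosts RIG-I, was chosen here after its values were seen: it had 3.34, 3.67 and 3.33 CPM in siNemp1 cells and 2.63, 4.02 and 6.15 CPM in control cells on 120 kPa, a difference of 1.09 on the same scale between control libraries numbered 3 and 1. These were the 3 members with a difference above 1 on that scale between those control libraries (background 6.54% of genes), and 1 member, HERC5 at 1.38 (also named after its values were seen), was above 1 between the same-numbered siNemp1 libraries (background 4.99%). The log2 change under siNemp1 on 120 kPa was -0.64 ± 0.51 for ISG15 (edgeR adjusted p = 0.562) and -1.16 ± 0.48 for IFI6 (adjusted p = 0.258), and in pair 1 both were higher in the siNemp1 library, by 0.69 and 0.27 on the log2 scale. In the same class as ISG15, UBE2L6 had 244, 211 and 145 CPM in siNemp1 cells and 238, 225 and 227 CPM in control cells on 120 kPa, and the ISG15 protease USP18 had 4.82, 3.13 and 2.94 CPM in siNemp1 cells and 3.39, 4.35 and 4.17 CPM in control cells, both with overlap; USP18 shares 30.8% of its 31-base words with other genes. HERC6 had 7.62, 8.66 and 8.09 CPM in siNemp1 cells and 8.42, 11.2 and 11.2 CPM in control cells on 120 kPa, with overlap, and was lower in all 3 pairs.

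**Figure D4:**
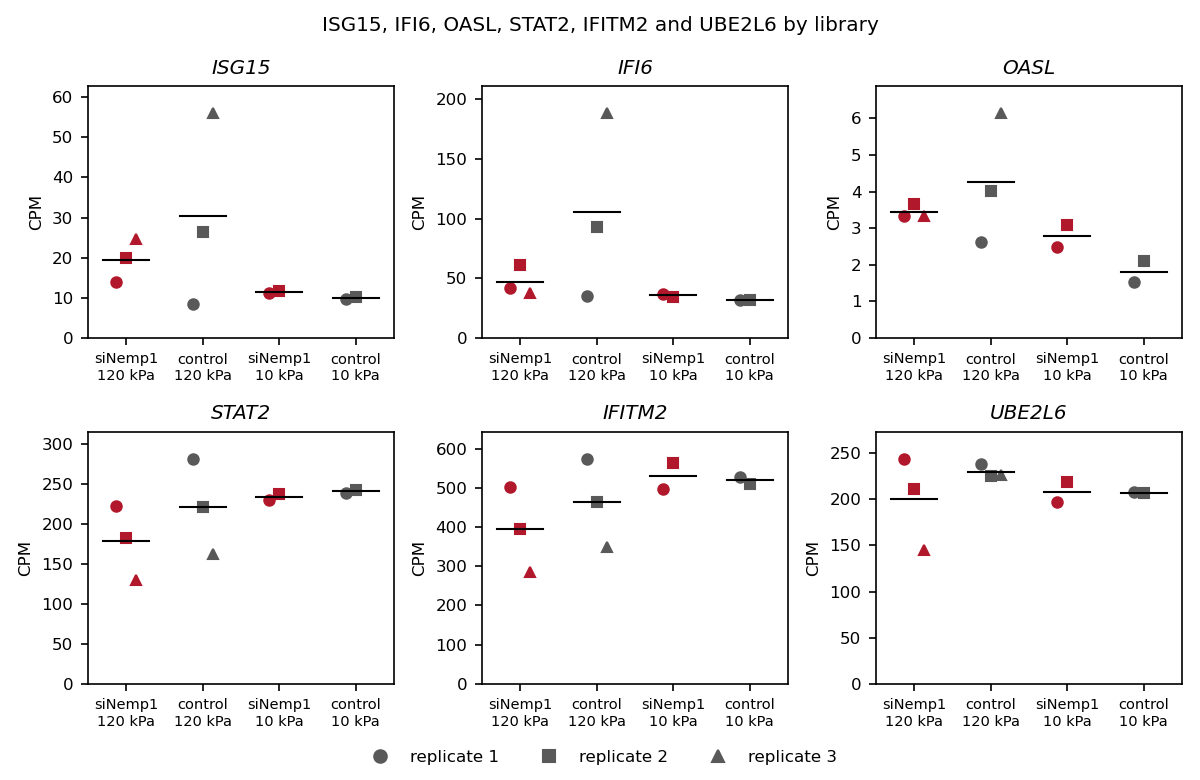
CPM in each library, drawn as in the plot of OAS3 and its companions, for ISG15, IFI6, OASL, STAT2, IFITM2 and UBE2L6. Control libraries on 120 kPa spread from 8.55 to 56.1 CPM for ISG15, while STAT2 and IFITM2 have the library numbered 1 highest and the library numbered 3 lowest in both treatments on 120 kPa.

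STAT2, the subunit of ISGF3 that activates transcription, IFITM2 and IFITM3 differed more between replicates 1 and 3 on 120 kPa than between treatments. On the scale of log2(CPM + 0.5), library 3 minus library 1 was -0.78 in siNemp1 cells and -0.79 in control cells for STAT2. It was -0.82 and -0.71 for IFITM2, -0.55 and -0.40 for IFITM3, and -0.75 and 0.08 for IFITM1. STAT2 had 223, 183 and 129 CPM in siNemp1 cells and 281, 221 and 162 CPM in control cells on 120 kPa, and 230.1 and 237 CPM in siNemp1 cells and 239 and 242 CPM in control cells on 10 kPa. The groups on 120 kPa overlapped, but STAT2 was lower in the siNemp1 library of every pair, with log2 ratios of -0.34, -0.28 and -0.33, and it fell with the block within 120 kPa (-0.31 ± 0.06, edgeR adjusted p = 0.00422) and not with the block over all libraries (adjusted p = 0.0812). IFITM2 had 503, 394 and 286 CPM in siNemp1 cells and 574, 465 and 349.9 CPM in control cells on 120 kPa, lower in all 3 pairs (-0.24 ± 0.07, adjusted p = 0.0274 within 120 kPa). IFITM3 had 1063, 899 and 727 CPM in siNemp1 cells and 1163, 1007 and 880.5 CPM in control cells on 120 kPa, also lower in all 3 pairs, and did not pass in either blocked fit. BST2 (tetherin), which holds budding virions at the cell surface, had 14.6, 12.3 and 10.8 CPM in siNemp1 cells and 14.4, 17.9 and 19.5 CPM in control cells on 120 kPa, with overlap (-0.46 ± 0.15, adjusted p = 0.0463 within 120 kPa). IFITM1 had 39.0, 27.7 and 23.0 CPM in siNemp1 cells and 38.5, 34.4 and 40.9 CPM in control cells.

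The remaining factors and effectors gave no common direction. IRF1, a factor that can drive many of these genes by itself, had 57.0, 65.2 and 82.8 CPM in siNemp1 cells and 63.7, 64.5 and 71.0 CPM in control cells on 120 kPa, and its change was 0.04 ± 0.13. IRF7 was listed at 0 in 6 of 10 libraries and reached 0.967 CPM in the highest, so it gives no usable fold. MX1 and MX2, GTPases that trap viral nucleocapsids, were low: MX1 had 2.65, 2.79 and 1.21 CPM in siNemp1 cells and 3.39, 2.86 and 1.43 CPM in control cells, and MX2 had 2.61, 1.76 and 1.34 CPM in siNemp1 cells and 2.90, 3.69 and 1.98 CPM in control cells, on 120 kPa. SAMD9L, a virus restriction factor, had 18.0, 13.2 and 12.8 CPM in siNemp1 cells and 22.6, 17.1 and 17.1 CPM in control cells on 120 kPa and fell with the block within 120 kPa (-0.37 ± 0.10, edgeR adjusted p = 0.0223). Its neighbour SAMD9 was near 1 CPM (0.461 to 1.31 over all libraries). TRIM22, an antiviral ubiquitin ligase, had 109, 106 and 118 CPM in siNemp1 cells and 111, 89.2 and 85.4 CPM in control cells, and SP100, a nuclear body protein, had 105, 103 and 128 CPM in siNemp1 cells and 108, 99.5 and 111 CPM in control cells.

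Markers of other cell types and library properties differed with the treatment, with ranges that overlapped on 120 kPa. Within every numbered pair on 120 kPa, the mitochondrial share and the sums of fibroblast and leukocyte markers were lower in the siNemp1 library. The share of ribosomal RNA transcripts was lower in every pair too, at 0.255, 0.237 and 0.164% in siNemp1 cells and 0.394, 0.304 and 0.229% in control cells. Mitochondrial ribosomal RNA was counted in both shares, so they are not separate measures. The retinal pigment epithelium sum had no common direction over the pairs. The share of mitochondrial transcripts was 0.709 to 1.06% in siNemp1 cells and 0.913 to 1.73% in control cells on 120 kPa. The summed level of 8 fibroblast markers was 389.6 to 908 CPM in siNemp1 cells and 790.2 to 1082 CPM in control cells on 120 kPa, mostly THY1, with COL3A1 at 0. The sum of 10 leukocyte markers was 499.6 to 866 CPM in siNemp1 cells and 718 to 1178 CPM in control cells on 120 kPa, nearly all of it the lysosomal protein CD68; TYROBP was at 0 and PTPRC, the pan-leukocyte marker, at 0.505 to 1.80 CPM over all libraries. Summed markers of retinal pigment epithelium were 167 to 246 CPM in siNemp1 cells and 199 to 231 CPM in control cells on 120 kPa. Of these 11 markers 5 had a mean over 1 CPM, and 1, DCT, had no count in any library. BEST1, MITF and OTX2 were present, while RPE65 was near 0 (0 to 0.0978 CPM). On 10 kPa these sums did not overlap between treatments. The fibroblast sum was 915 to 917 CPM in siNemp1 cells and 1077 to 1083 CPM in control cells, and the leukocyte sum was 943 to 1029 CPM in siNemp1 cells and 1091 to 1092 CPM in control cells. The retinal pigment epithelium sum was 257 CPM in both siNemp1 libraries and 221 to 232 CPM in control cells, and the share of ribosomal RNA transcripts was 0.322% to 0.323% in siNemp1 cells and 0.392% to 0.404% in control cells. The mitochondrial share on 10 kPa overlapped, at 1.48 to 1.55% in siNemp1 cells and 1.54 to 1.60% in control cells. The part of these differences in the member values at either stiffness was not tested. In bulk RNA, fewer cells expressing a gene and less RNA per cell cannot be told apart.

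On 10 kPa the members did not share a direction. The fitted log2 change was positive for 24 and negative for 15 of 39 members, with a median of 0.05, against 0.00 over all genes. OAS3, EIF2AK2, PARP14 and DTX3L again had lower levels in siNemp1 cells, and DHX58, IFI35 and IFIT3 had higher ones. In edgeR's test on all 10 libraries 0 members and 0 genes (0%) were called, with 3 members at an unadjusted p under 0.05 (1 higher, 2 lower; background 6.08%), the block over all libraries called 0 members among 4 genes (0.0286%), and DESeq2 called 0 members among 17 genes (0.0722%). A fit of the 4 libraries on 10 kPa alone, whose common dispersion was 0.00423 against 0.0387 over all libraries, called 9 of 38 members among 2308 of 13345 genes (17.3%). Those 9 were 5 higher (DHX58, IFI35, IFI44L, IFIT3 and TRIM22; background 8.1%) and 4 lower (DTX3L, EIF2AK2, OAS3 and PARP14; background 9.19%). In that fit the log2 change of IFI35, whose product binds the signalling protein NMI, was 0.40 ± 0.07 (edgeR adjusted p = 5.18e-04), and it had 61.5 and 62.3 CPM in siNemp1 cells and 47.5 and 45.7 CPM in control cells. DHX58 had 9.14 and 10.2 CPM in siNemp1 cells and 7.55 and 5.88 CPM in control cells, and its change was 0.51 ± 0.17 (adjusted p = 0.0439). OAS3 changed by -0.51 ± 0.12 (adjusted p = 0.00549) and EIF2AK2 by -0.24 ± 0.06 (adjusted p = 0.0120). Of 39 members 14 did not overlap and were higher (background 28.8%) and 10 did not overlap and were lower (background 28.5%), shares near those of all genes.

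Over both stiffnesses together OAS3 was the member that fell without the block, by 0.65 on the log2 scale (-0.65 ± 0.13, edgeR adjusted p = 0.0495), among 180 called genes (1.29%, with 0.429% lower). That call was close to the threshold and was lost when any of 7 of the 10 libraries was left out, with the change then between -0.74 and -0.55. With the block over all libraries OAS3, EIF2AK2, PARP14 and DTX3L fell (background 4.17% fell and 6.58% rose), at -0.65 ± 0.13, -0.31 ± 0.07, -0.31 ± 0.08 and -0.32 ± 0.09, and the edgeR adjusted p ran from 0.0135 for OAS3 to 0.0407 for DTX3L. With the block within 120 kPa 9 members were called, 7 lower and 2 higher (background 9.7% lower and 13.3% higher), and DESeq2 called 3, all lower (background 1.64% lower). OAS3, EIF2AK2, PARP14, DTX3L and OAS1 were the 5 members that were lower without overlap at both stiffnesses (background 4.82%), and 0 were higher at both (background 8.01%).

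The siNemp1 effect was then compared between the stiffnesses. The difference of the effects, 120 kPa minus 10 kPa, was negative for 30 of 39 members, with a median of -0.24, against 0.03 over all genes, of which 45.3% were negative. By sign, 17 members had a negative change on 120 kPa and a positive one on 10 kPa, a pattern of 14.3% of all genes, and 12 were negative at both (34.9% of all genes). The 17 included IFIT2, IFIT3, ISG15, IFI6, UBE2L6, BST2 and all 3 IFITM genes, and the 12 included OAS1, OAS3, EIF2AK2, PARP14, DTX3L and STAT2. In the edgeR test of the difference itself 0 members passed (background 0.00715%, 1 gene), 2 had an unadjusted p under 0.05, IFIT2 and IFIT3, both lower (background 0.55% lower), and DESeq2 called 0 members among 3 genes (0.0127%). Those 2 differences were -0.69 ± 0.21 for IFIT2 and -0.74 ± 0.22 for IFIT3 on the log2 scale (edgeR adjusted p = 1.000 for both).

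Between stiffnesses, OAS1, OASL and IFI6 were higher on 120 kPa than on 10 kPa without overlap in both treatments. IFIT2 and IFIT3 were higher on 120 kPa in control cells and lower on 120 kPa in siNemp1 cells. The share of all genes with either joint pattern was not computed. In siNemp1 cells some margins were small. IFI6 had at least 38.0 CPM on 120 kPa and at most 36.7 CPM on 10 kPa, and OASL at least 3.33 and at most 3.08 CPM. The libraries are the same as above, set side by side the other way. OAS1 had 17.9, 16.2 and 15.6 CPM on 120 kPa and 14.0 and 14.7 CPM on 10 kPa in siNemp1 cells, and 20.1, 20.8 and 22.7 CPM on 120 kPa and 15.5 and 15.6 CPM on 10 kPa in control cells (in control cells 0.45 ± 0.14, edgeR adjusted p = 0.991). Of 39 members 14 did not overlap and were higher on 120 kPa in control cells (background 10.4%) and 0 did not overlap and were lower (background 11.9%). In siNemp1 cells 6 were higher without overlap (background 18.2%) and 9 lower (background 15.5%). The 9 were OAS3 (16.8, 15.7 and 11.9 CPM on 120 kPa and 19.0 and 20.4 CPM on 10 kPa in siNemp1 cells), PARP14, EIF2AK2, DTX3L, PARP9, IFIT2, IFIT3, STAT2 and MX2. No member passed in the edgeR test of either comparison. In control cells 7 members, all higher (IFI6, IFIT2, IFIT3, ISG15, OAS1, OASL and USP18), had an unadjusted p under 0.05 (background 2.2% of genes higher), 2 genes were called in all (0.0143%), and DESeq2 called 0 members among 12 genes (0.051%). In siNemp1 cells 2 members, both lower, had such a p (background 3.01% lower), 0 genes were called (0%), and DESeq2 called 0 members among 111 genes (0.472%). Over both treatments 0 members were called (background 0%), 6 had an unadjusted p under 0.05, 5 of them higher (background 10.4%) and 1 lower (background 5.3%), and DESeq2 called 0 among 491 genes (2.09%); without control replicate 1 on 120 kPa 3 were called higher, IFI6, ISG15 and OASL, among 2.37% of all genes called.

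Among the signalling genes upstream, 2 receptor subunits were called higher on 120 kPa with the block over all libraries. Without the block 0 genes were called there. Of 15 tested receptor and JAK-STAT genes on 120 kPa, 2 rose and 0 fell with the block over all libraries (background 6.24% of genes rose and 2.51% fell). They were IL10RB, a subunit of the receptor for type III interferons, and IFNGR1, the binding subunit of the interferon-gamma receptor. IL10RB had 71.5, 72.2 and 70.4 CPM in siNemp1 cells and 45.4, 42.4 and 46.3 CPM in control cells on 120 kPa, and 49.5 and 57.7 CPM in siNemp1 cells and 37.0 and 37.9 CPM in control cells on 10 kPa, higher in every siNemp1 library (0.67 ± 0.10, edgeR adjusted p = 0.00622). IFNGR1 had 32.7, 31.1 and 35.6 CPM in siNemp1 cells and 19.2, 19.8 and 25.0 CPM in control cells on 120 kPa, and 24.0 and 25.1 CPM in siNemp1 cells and 17.9 and 18.9 CPM in control cells on 10 kPa, also without overlap (0.64 ± 0.11, adjusted p = 0.00970). Of all genes 8.01% were higher without overlap at both stiffnesses. Over both stiffnesses IL10RB and IFNGR1 rose without the block as well, by 0.60 ± 0.08 and 0.53 ± 0.10 (edgeR adjusted p = 0.0442 and 0.0483). The type I receptor subunit IFNAR1 had 64.3, 53.6 and 49.9 CPM in siNemp1 cells and 71.0, 55.4 and 49.2 CPM in control cells on 120 kPa, with overlap.

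Of 17 tested genes listed for nucleic acid sensing upstream of interferon, 3 fell and 0 rose on 120 kPa with the block (background 2.51% fell and 6.24% rose). ADAR, which edits double-stranded RNA and keeps it from being sensed, had 134, 134 and 112 CPM in siNemp1 cells and 177, 157 and 146 CPM in control cells (-0.34 ± 0.09, edgeR adjusted p = 0.0375). TRIM25, a ubiquitin ligase for RIG-I, had 29.4, 30.9 and 34.1 CPM in siNemp1 cells and 36.8, 40.9 and 44.7 CPM in control cells (-0.38 ± 0.10, adjusted p = 0.0389), and MAVS, the mitochondrial adaptor of RIG-I and MDA5, had 154, 148 and 126 CPM in siNemp1 cells and 180.4, 193 and 162 CPM in control cells (-0.32 ± 0.09, adjusted p = 0.0411). For all 3 the siNemp1 libraries lay below the control libraries at both stiffnesses, a pattern of 4.82% of all genes. CGAS, the cytosolic DNA sensor, was listed at 0 in 8 of 10 libraries. Of 41 other tested interferon-inducible genes, 3 fell and 0 rose on 120 kPa with the block (the same background): APOL6 (-0.66 ± 0.12), APOL1 (-1.02 ± 0.22) and LGALS3BP (-0.50 ± 0.13), with edgeR adjusted p of 0.0107, 0.0201 and 0.0437. APOL6 had 27.9, 26.8 and 17.6 CPM in siNemp1 cells and 44.3, 36.0 and 32.6 CPM in control cells on 120 kPa. These 3 do not stand for their list. Its 48 genes found summed to 4703 to 5014 CPM in siNemp1 cells and 4522 to 4802 CPM in control cells on 120 kPa, with overlap. On 10 kPa the sum was higher in siNemp1 cells without overlap, at 4506 to 4515 CPM against 4289 to 4344 CPM. Without the block 0 genes of these lists passed on 120 kPa.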

How the data were processed

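The 10 RNA-seq libraries were grouped by their titles. Per the labels' protocols, total RNA was depleted of ribosomal RNA and reverse transcribed from random hexamers. Salmon 1.80 (as written), FastQC 0.11.9, Trimmomatic 0.33, edgeR and the build GRCh38 appear in the submitters' processing notes. The sources used here give neither strandedness nor the transcript annotation. The authors deposited estimated counts per gene, unscaled, totalling 17949807 to 23797713 per library, and these were rounded to whole numbers here.

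Genes were kept by filterByExpr over the 4 groups and scaled by TMM. A robust quasi-likelihood model with a mean for each group (edgeR 4.0.16 with limma 3.58.1 under R 4.3.3) used the 10 libraries and had 6 residual degrees of freedom. Tests were two-sided, p-values were Benjamini-Hochberg adjusted over the tested genes, an adjusted p under 0.05 was called, and ± after a log2 change is the SE. Log ratios of single libraries used CPM + 0.5. Fits with the replicate number as a block had 4 residual degrees of freedom. The number paired the libraries on 120 kPa, where each correlation of deviations between same-numbered libraries was over 0.1; the labels do not say what a number stands for. On 10 kPa it was not over 0.1. DESeq2 1.42.0 was an alternative, and other scalings, no filter, only the groups compared and leaving out each library were tried. The edgeR fits were tested on simulated counts that held no effect of the replicate number. That test cannot show how the blocked fits handle such an effect. All replicates differed by more than sampling noise.

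The members and gene lists were chosen with earlier results of these data known. The genes to name were NEMP1, members called in any comparison with or without the block over all libraries, in each class the 2 highest in CPM and the smallest p at each stiffness, and of the pathway lists the called genes, at most 4 per list and comparison. Other genes named were chosen after their values were seen. Shared 31-base words and transcript lengths came from GENCODE 29, promoter sequences from RefSeq. Listed genes with no row of that symbol were not analysed here. One gene of the signalling list is not reported here.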

Additional observations from a re-analysis of the deposited data

Results flagged for a closer look

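The siNemp1 effect on IFIT2 and IFIT3 had opposite signs at the 2 stiffnesses, with every siNemp1 library below every control library on 120 kPa and above every control library on 10 kPa. Of 13990 tested genes 33 (0.236%) had that pattern, and 53 (0.379%) the reverse one. The difference of the effects, 120 kPa minus 10 kPa, was -0.69 ± 0.21 for IFIT2 and -0.74 ± 0.22 for IFIT3 on the log2 scale. Both had an unadjusted p under 0.05, and neither passed the edgeR adjustment over all genes (adjusted p = 1.000 for both). IFIT2 shares exons with AL353751.1 on the same strand and with LIPA on the opposite strand. Of its 31-base words 7.96% occur in other genes, and of those of IFIT3 6.19%.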

How the results depend on the processing

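Counts of called members depended on the replicate block, and the share of all genes called, given in brackets, moved with it. For siNemp1 on 120 kPa, 0 members were called without the block (0%). The block over all libraries gave 4 (8.75%), the block within 120 kPa 12 (20.4%), DESeq2 3 (2.73%), no filter 4, IRF7 near 0 among them (2.73%), the block with upper-quartile scaling 6 (8.68%) and with RLE size factors 4 (7.88%). The block without pair 1 gave 10 (11.2%), without pair 2 it gave 0 (0.0144%) and without pair 3 it gave 1 (5.49%). Leaving out 1 library gave 0 to 1, with PARP14 called without control replicate 3 on 120 kPa (4.19%). On 10 kPa the block gave 0 (0.0286%) and the 4 libraries alone gave 9 (17.3%), with a common dispersion of 0.00423. Over both stiffnesses 1 member was called (1.29%). There the block over all libraries gave 4 (10.8%), the block within 120 kPa 9 (23%), DESeq2 3 (4.22%), RLE 0 (0%) and upper-quartile scaling 0 (0.508%) without the block, no filter 2, IFI6 and OAS3 (2.76%), and leaving out 1 library 0 to 1. The block there gave 7 (18%), 2 (4.32%) and 4 (11.6%) without pairs 1, 2 and 3, 5 with upper-quartile scaling (10.4%) and 4 with RLE (10.6%). For stiffness, no filter gave 1 member in siNemp1 cells (2.25%), 2 in control cells (0.675%) and 4 over both treatments (3.56%), and 1 for the difference of the siNemp1 effects (0.297%). The block without pair 1 gave 1 in control cells, ISG15 (0.62%), and 1 over both treatments (2.39%), where leaving out 1 library gave 0 to 3, the 3 without control replicate 1 on 120 kPa (2.37%). The cause of these shifts was not tested. No named gene reversed among called values. The median change of the members on 120 kPa ran from -0.41 to -0.18. The block without each pair and with other scalings was chosen after seeing the data. Counts limit what can be said of the 4 members that did not pass the filter, and of IRF7.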
